A study of Mus musculus with 4 samples.

Results

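Organoids held 72 h in BMP2 had 600 strictly called accessible regions that lay far from protein-coding genes and that were not called at 0 h. They were chosen from the peak calls themselves: a 72 h peak at the p-value threshold of 1e-10, called strict here, entered when no 0 h peak at the lenient threshold of 1e-05 overlapped it by 1 bp, on chromosomes 1 to 19 and X, and when its midpoint lay over 50 kb from every protein-coding gene body of RefSeq (mm10). They are 600 of the 77200 lenient peaks of both libraries and 33.3% of the 1800 strict 72 h peaks that far from genes (95% interval 31.2 to 35.6). The assay for transposase-accessible chromatin (ATAC-seq) cuts open chromatin with the Tn5 transposase and sequences what is released. The organoids came from crypts of the proximal jejunum, taken from C57BL/6J mice, and the labels do not say how many mice. The 0 h organoids stayed in CVENR medium: CHIR99021, an activator of Wnt signalling, valproic acid, an inhibitor of histone deacetylases, EGF, the BMP antagonist Noggin, and R-spondin. The 72 h organoids kept EGF and R-spondin, lost the rest for 72 h and received 100 ng/mL BMP2. BMP2 and the change of medium therefore cannot be told apart. Each time point is 1 library of 30000 cells. Libraries taken at 24 h and 48 h were not analysed here, and no value below has a replicate or a p-value.

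Regions far from genes are often enhancers, short stretches where transcription factors bind and act on a promoter at a distance. Long gene-poor intervals tend to surround genes for transcription factors and signalling proteins, and 1 gene can be served by many enhancers spread over its interval. In the intestine, BMP signalling rises from crypt to villus through phosphorylated SMAD proteins, while Wnt signalling maintains the crypt. The files hold positions and no read counts, so a region missing at 0 h could be closed, open in few cells or open below the calling threshold, and these cannot be told apart.

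Sequence could be read for the 12 regions that overlapped a 300-base promoter window of a long non-coding RNA (lncRNA) gene in the RefSeq table (GRCm38.p6, from 250 bases before the start to 50 after it). The sequences that follow hold the letters of a searched motif inside the accessible region, and capitals mark the match. A further window, 4930543I11Rik, held AP-1 letters (TGAGTCA) from base 256 inside its region and is not shown. Wincr1 (chr4:89050057-89050356, plus strand) lies in an interval of 257 kb between Ifne and Mtap that held 3 of the sites. Gm19276 (chr15:10828801-10829100, plus strand) lies between Rai14 and C1qtnf3, and Gm52719 (chr4:124353037-124353336, minus strand) between Rragc and Pou3f1. Gm32546 (chr2:136456723-136457022, minus strand) and Gm30382 (chr3:149445550-149445849, minus strand) carry the same forkhead letters.
Wincr1: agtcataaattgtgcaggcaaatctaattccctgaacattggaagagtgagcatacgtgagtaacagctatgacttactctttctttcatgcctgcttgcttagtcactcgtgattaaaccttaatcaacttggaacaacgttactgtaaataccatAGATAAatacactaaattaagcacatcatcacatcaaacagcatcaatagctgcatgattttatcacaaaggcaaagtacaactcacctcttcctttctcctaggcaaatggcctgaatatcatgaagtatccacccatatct
Gm19276: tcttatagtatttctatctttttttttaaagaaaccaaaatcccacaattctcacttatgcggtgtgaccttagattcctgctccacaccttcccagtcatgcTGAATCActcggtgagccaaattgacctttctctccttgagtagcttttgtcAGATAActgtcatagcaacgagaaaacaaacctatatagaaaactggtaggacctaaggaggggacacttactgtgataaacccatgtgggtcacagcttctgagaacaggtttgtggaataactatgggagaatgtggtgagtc
Gm52719: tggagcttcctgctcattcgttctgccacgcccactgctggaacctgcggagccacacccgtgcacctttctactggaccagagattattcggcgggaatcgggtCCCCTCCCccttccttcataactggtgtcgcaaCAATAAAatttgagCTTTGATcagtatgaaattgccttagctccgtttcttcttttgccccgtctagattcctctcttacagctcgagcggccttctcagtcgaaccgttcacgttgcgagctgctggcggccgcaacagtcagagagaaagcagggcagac
Gm32546: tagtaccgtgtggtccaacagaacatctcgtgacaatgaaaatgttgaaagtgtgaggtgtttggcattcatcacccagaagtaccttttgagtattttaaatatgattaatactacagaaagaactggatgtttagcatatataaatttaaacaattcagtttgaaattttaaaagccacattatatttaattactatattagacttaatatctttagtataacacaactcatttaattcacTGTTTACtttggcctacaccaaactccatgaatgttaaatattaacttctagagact
Gm30382: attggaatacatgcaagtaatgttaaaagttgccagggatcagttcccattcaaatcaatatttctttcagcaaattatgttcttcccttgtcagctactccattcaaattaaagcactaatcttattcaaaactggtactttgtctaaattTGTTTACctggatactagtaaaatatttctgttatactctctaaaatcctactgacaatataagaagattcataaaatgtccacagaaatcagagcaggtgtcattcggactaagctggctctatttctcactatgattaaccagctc
Positions count from 1 at the 5′ end of each line. Wincr1 had the GATA letters (AGATAA) from base 158, and Gm19276 had AP-1 letters (TGANTCA) from base 104 and GATA letters from base 156. Gm52719 had 3 matches that did not overlap: KLF (GGGNGGGG, read on the other strand) from base 106, CDX (TTTATNG, also on the other strand) from base 139 and TCF (CTTTGAT) from base 153. Gm32546 and Gm30382 had the forkhead letters (FOX, TGTTTAC) from bases 244 and 153. Of the 12 windows, 2 held GATA letters, against 11.2% of all 32851 promoter windows, 2 held AP-1 letters against 7.81%, and 3 held FOX letters against 3.65%, 1 of them outside the accessible region. CDX letters were in 1 window against 10.9%, TCF letters in 1 against 3.73% and KLF letters in 1 against 33.2%. All 12 are lncRNA windows, and among the 11575 lncRNA windows the shares were 14.0% for GATA, 9.31% for AP-1, 4.84% for FOX, 13.3% for CDX, 4.67% for TCF and 22.0% for KLF. Strict 72 h peaks equally far from genes but also called at 0 h touched 71 windows. There the shares were 12.7% for GATA, 12.7% for AP-1, 1.41% for FOX, 16.9% for CDX, 5.63% for TCF and 23.9% for KLF. None of the 12 held the HNF4 (CAAAGTCCA), HNF1, SMAD (GGCGCC) or CTCF core letters. Among the lncRNA windows the shares were 0.518% for HNF4, 0.0173% for HNF1, 5.49% for SMAD and 5.39% for CTCF core. Among the 71 windows they were 0%, 0%, 9.86% and 8.45%. At such shares 12 windows are too few to read anything from an absence. Both strands were searched. The 12 windows had a median of 45.7% G and C (29.7 to 54.3), lncRNA windows 48.3% and all windows 52.7%. These shares describe 12 windows, and the sequences of the other regions were not analysed here.

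The 600 regions covered 358 kb and lay a median of 118 kb from the nearest protein-coding gene, from 50.0 to 1626 kb. Of these, 255 lay 50 to 100 kb away and 39 over 500 kb. Those closest to the limit were chr1:181286086-181286686 near Gm38664 at 50.017 kb, chr10:98864284-98864884 near Atp2b1 at 50.046 kb and chrX:133738856-133739456 near Pcdh19 at 50.112 kb. Just short of it lay 72 h-only strict peaks near Tsc22d2 at 49.938 kb, Zfp608 at 49.955 kb and Sp3 at 49.971 kb. The 3 most remote lay 1626 kb from Slc10a2, which encodes the bile acid transporter of the ileum, 1348 kb from the cadherin gene Cdh6, and 1055 kb from Iftap.

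The gap to the nearest 0 h peak ran from a few bases to over a megabase. Its median was 28.7 kb, its range 4 bp to 1224 kb, and 143 regions had no 0 h peak within 100 kb. At the other end 32 regions had one within 1 kb, 98 (16.3%, 13.5 to 19.5) within 5 kb and 356 (59.3%, 55.3 to 63.3) within 50 kb. The smallest gaps were 4 bp at chr12:7919251-7919851, which lies 58.1 kb from Apob, the apolipoprotein of chylomicrons, 30 bp near Arf6 and 36 bp near Fat1. The 1200 strict 72 h peaks in the same space that a 0 h peak did overlap shared a median of 576.5 bp with it, and 1172 shared over 300 bp. The smallest overlaps among them were 7 bp near Ccdc91, 33 bp near Abcd3 and 37 bp near Pcsk6.

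**Figure D1:**
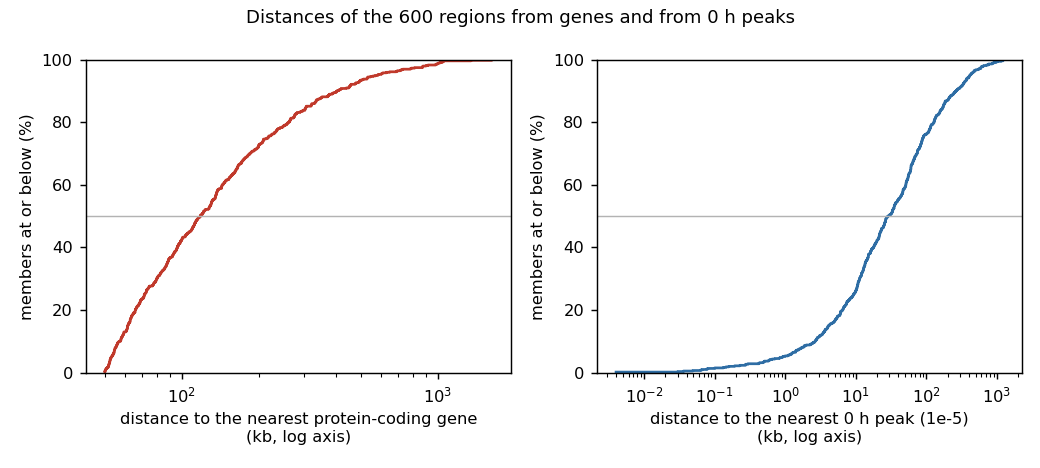
Cumulative share of the 600 regions (%) by distance from the nearest protein-coding gene body (left, kb, log axis) and from the nearest lenient 0 h peak (right, kb, log axis). The horizontal line marks 50%, which is crossed at 118 kb for genes and at 28.7 kb for 0 h peaks.

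The share of strict 72 h peaks with no 0 h peak differed little from 1 kb outwards. Inside gene bodies it was 16.9% of 13687 peaks and within 1 kb of a gene 2.87% of 4523. It was 28.5% at 1 to 5 kb, 30.0% at 5 to 20 kb and 30.4% at 20 to 50 kb. Over 50 kb it lay between 30.0% and 34.6% in all 5 distance classes, with 34.2% (25.6 to 43.7, 39 of 114 peaks) over 500 kb. Within 50 kb of genes as a whole, gene bodies included, it was 16.9% of 23132 peaks, and over all distances 18.1% of 24932. In the other direction 156 of 1108 strict 0 h peaks over 50 kb from genes (14.1%, 12.1 to 16.3) had no lenient 72 h peak, against 5.94% of 18712 within 50 kb. The rule chose on these calls, so the shares describe where the regions sit.

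**Figure D2:**
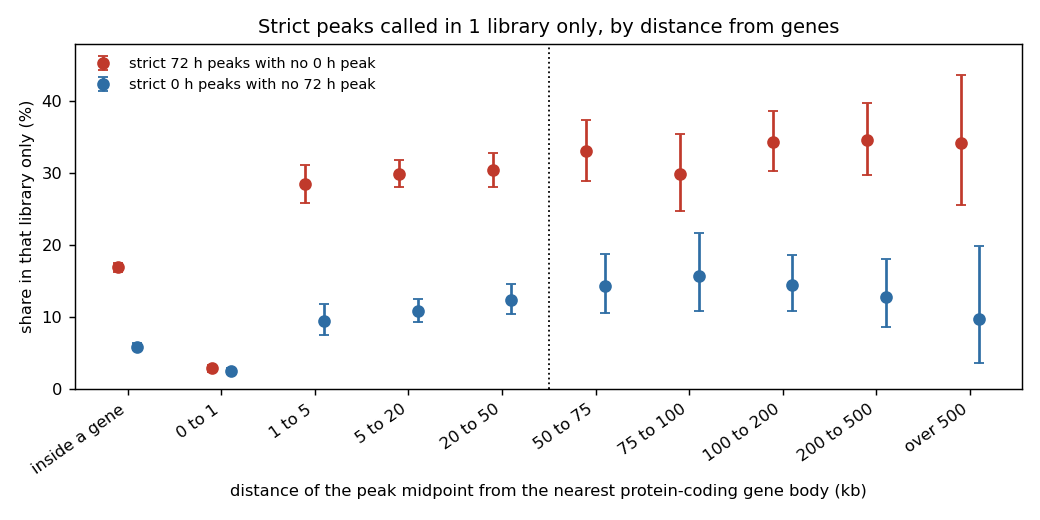
Share of strict peaks called in 1 library only (%), by distance of the midpoint from the nearest protein-coding gene body (kb); bars are exact 95% intervals and the dotted line is the 50 kb limit. At 72 h (red) the share stays between 28.5% and 34.6% in every class from 1 kb outwards, and at 0 h (blue) between 9.52% and 15.8%.

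Overlapping regions were merged, which turned the 600 into 588 sites, with 23 regions overlapping another. The sites lay in 381 intervals, bounded by neighbouring protein-coding genes except for 2 at chromosome ends, before Gdi2 on chromosome 13 and after Csf2ra on chromosome 19. Between protein-coding genes, 2768 intervals were long enough (over 100 kb) to hold a site. In 257 intervals there was 1 site, in 77 there were 2, and in 47 there were 3 or more, which together held 177 sites. The fullest interval held 8. For comparison, the 1200 strict peaks shared with 0 h formed 1141 sites in 614 intervals, 130 of them with 3 or more sites and up to 13 in 1. The 156 peaks lost from 0 h formed 155 sites in 139 intervals, and 3 intervals had 3 of them, the leading one between Phlda1 and Krr1. Intervals with 3 or more of the 72 h-only sites had a median length of 656 kb, those with any 429 kb and all 2768 had 228 kb.

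Most of these intervals already held accessible sites at 0 h. Of the 381, 217 also held a strict 72 h peak shared with 0 h, 46 a strict peak found at 0 h only, and 106 held no lenient 0 h peak over 50 kb from genes. Of the 47 fullest, all but 5 had a shared strict peak and 1 had no lenient 0 h peak. Those 5 lay between Tas2r134 and Rbm43, Ccdc71l and Nampt, Fut8 and Gm6657, Zfp608 and Gramd3, and Dhx35 and Gm826 (named after their values were seen). The median share of strict 72 h peaks in the 47 intervals that were absent at 0 h was 58.3%. Over all 1800 strict 72 h peaks that far from genes it was 33.3%. The 47 intervals were chosen for their 72 h-only sites, which by itself raises their share.

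**Figure D3:**
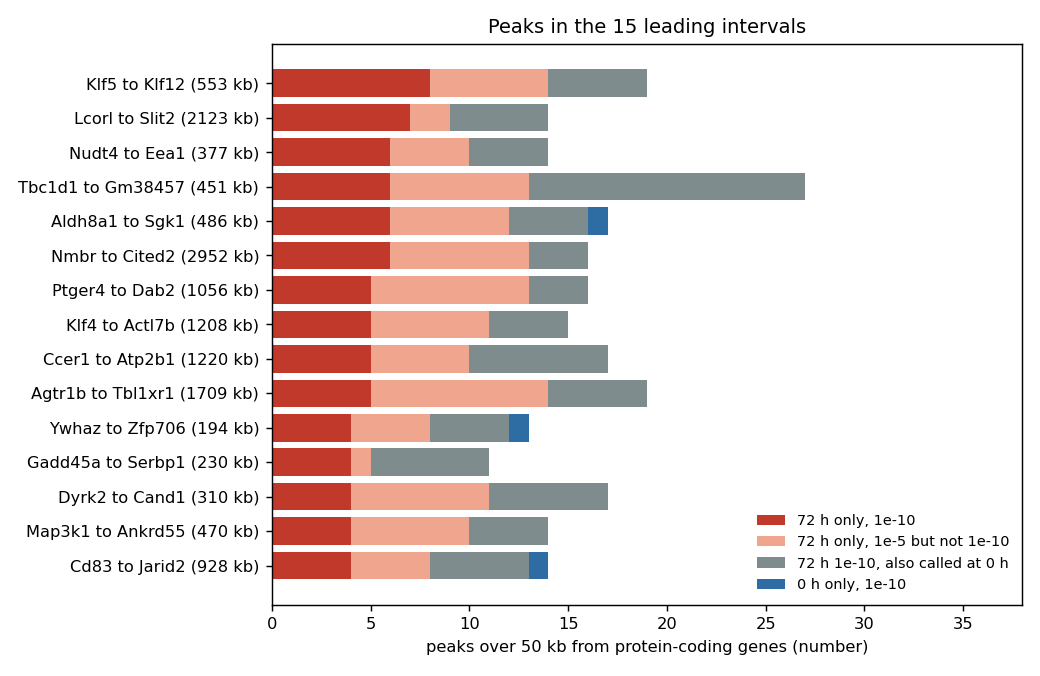
Number of peaks over 50 kb from protein-coding genes in the 15 intervals with the most 72 h-only strict sites, with the interval's length in brackets. Red bars are the strict 72 h-only regions (8 between Klf5 and Klf12), pale bars the weaker 72 h-only peaks, grey bars strict 72 h peaks also called at 0 h, and blue bars strict peaks called at 0 h only, present in 3 of the 15.

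The leading interval, 553 kb on chromosome 14, lies between Klf5, a zinc finger factor of the crypt that promotes proliferation, and Klf12, a transcriptional repressor. At 0 h it held 12 lenient peaks and at 72 h 25. Of its strict 72 h peaks, 8 were absent at 0 h and 5 were shared. No strict peak was found at 0 h only, and 6 weaker 72 h peaks were also absent at 0 h. The 3 sites nearest Klf5 lay 68.8, 80.4 and 85.9 kb from it, at chr14:99381929-99382529, chr14:99393525-99394125 and chr14:99399039-99399639. The next 3 lay at 138, 180.0 and 207 kb, and the last 2 lay 152.6 and 94.98 kb from Klf12. Within 50 kb of Klf5 itself there were 4 strict 72 h peaks, all 4 also called at 0 h.

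A second Kruppel-like interval, 1208 kb on chromosome 4, runs from Klf4, a factor of differentiated villus cells, to Actl7b. Its 5 sites included 4 that lay 144, 186, 236 and 237 kb from Klf4, on the side of the gene's start, and 1 that lay 234 kb from Actl7b. There were 6 lenient peaks at 0 h and 16 at 72 h. The 72 h-only sites thus crowded toward the Klf4 end, with 1 exception. Strict peaks shared with 0 h were placed alike, at 72.7, 76.9 and 175.7 kb from Klf4, with 1 at 1153 kb.

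Of the 5 intervals with 6 sites, 4 held them mostly toward 1 side. Strict peaks shared with 0 h lay mostly toward the same side in all 4. Between Nmbr, a neuromedin B receptor, and Cited2, a transcriptional co-regulator that binds CBP and p300, the interval was 2952 kb long, and all 6 sites lay 138 to 787 kb from Cited2 and 2164 kb or more from Nmbr. The 0 h library had 3 lenient peaks there and the 72 h library 16, and the sites' gaps to the nearest 0 h peak were 60.9 to 433 kb. Between Aldh8a1, an aldehyde dehydrogenase, and Sgk1, a kinase that controls ion transport, 6 sites fell 51.7 to 277 kb from Aldh8a1, with 5 lenient peaks at 0 h and 16 at 72 h. Between Nudt4, a phosphatase of inositol pyrophosphates, and Eea1, a tether of early endosomes, 6 sites lay 61.4 to 200.1 kb from Nudt4, with 8 and 15 lenient peaks. Between Lcorl and Slit2, a secreted guidance ligand, 7 regions formed 6 sites in 2123 kb, 5 of them within 439 kb of Lcorl, with 5 and 14 lenient peaks. Strict peaks shared with 0 h lay 1830 to 2883 kb from Nmbr and 58.4 to 289.6 kb from Aldh8a1. They lay 75.5 to 184.4 kb from Nudt4 and 174.6 to 720.9 kb from Lcorl. The interval from Tbc1d1, which regulates glucose transporter traffic, to Gm38457 also had 6 sites but was open beforehand: 14 of its strict 72 h peaks were shared with 0 h, and the lenient counts were 18 and 28.

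**Figure D4:**
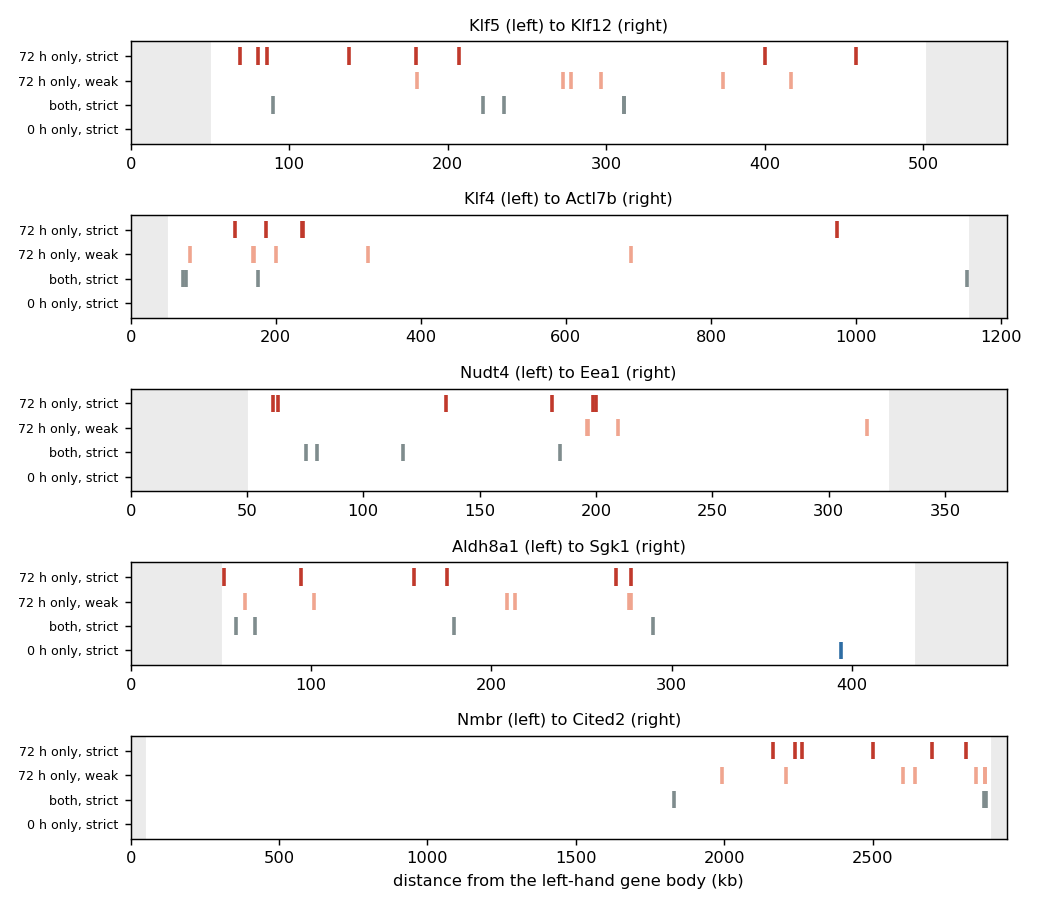
Positions of peaks in 5 of the intervals, as distance from the left-hand gene body (kb), with a row for each class of peak; shading marks the 50 kb beside each gene, where peaks were not counted. The 72 h-only strict regions (red) between Nmbr and Cited2 all lie 2164 kb or more from Nmbr, toward Cited2, and those between Klf4 and Actl7b lie near Klf4 except 1. Strict 72 h peaks also called at 0 h (grey) lie toward the same ends in both, except 1 between Klf4 and Actl7b.

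Besides Klf4 to Actl7b, 3 intervals held 5 sites. Ptger4, a receptor for prostaglandin E2, and Dab2, an endocytic adaptor, bounded 5 sites 162 to 987 kb from Ptger4, with 3 lenient 0 h peaks and 16 at 72 h. Atp2b1, a plasma membrane calcium pump, had 5 sites between it and Ccer1, 4 of them 50.0 to 335 kb from Atp2b1, with 10 and 18 lenient peaks. Tbl1xr1, part of a corepressor complex, had 5 sites between it and the angiotensin receptor gene Agtr1b, 2 of them 50.9 and 89.6 kb from Tbl1xr1, with 5 and 19 lenient peaks. Of 8 intervals with 4 sites, the 5 shortest lay between Ywhaz and Zfp706, the stress-response gene Gadd45a and Serbp1, the kinase gene Dyrk2 and Cand1, the kinase gene Map3k1 and Ankrd55, and Cd83 and Jarid2, a cofactor of Polycomb repressive complex 2. Their lenient counts at 0 h and 72 h were 6 and 13, 8 and 11, 9 and 20, 7 and 15, and 13 and 17. The longer 3 lay between A1bg and Myc (12 and 13, with 2 strict peaks at 0 h only), Zeb2 and Acvr2a (12 and 19) and Lrrc4c and Iftap (7 and 15). Ties in the number of sites were ranked by regions and then by shorter length. In the 15 leading intervals the 72 h count was the higher, which the choice of intervals by their 72 h-only peaks favours.

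Chains of sites that lay no more than a set distance apart, a value between the 5 kb and 50 kb tried as alternatives, joined 83 of the 588 sites into 39 clusters, 4 of them with 3 or more sites. The tightest group of 4 spanned 18.8 kb at chr15:36881477-36900317, between Ywhaz, a 14-3-3 protein, and Zfp706, and 1 shared strict peak and 2 lenient 0 h peaks lay inside it. Of these 0 h peaks, 1 was also strict and was called at 0 h only, 81.9 kb from Ywhaz. A group of 3 sites spanned 9.35 kb at chr12:32306289-32315640 between Pik3cg, a catalytic subunit of PI3-kinase, and Ccdc71l, with no 0 h peak between them. On the other side of Ccdc71l, toward Nampt, the enzyme of NAD salvage, lay 3 further sites. Another 3 sites spanned 17.7 kb beside Klf5, and 3 spanned 20.5 kb at chr1:64275007-64295528 between Klf7 and Creb1, where no 0 h peak lay inside. A pair 1.39 kb long lay between Insc and Sox6, 265 kb from Sox6.

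Weaker 72 h-only peaks, those called at 1e-05 but not at 1e-10, lay within the same distance of 148 regions (24.7%, 21.3 to 28.3). The same was true of 19% (16.8 to 21.3) of the 1200 shared strict peaks and of 11.5% (6.98 to 17.6) of the 156 lost ones. The first and the second interval meet at 21.3%. Another region of the same class lay that close to 14.8% of the 600 (12.1 to 17.9) and to 26.0% of the shared peaks (23.5 to 28.6), a class of 1200 peaks in the same space. Peaks in 1 interval share their surroundings, so these intervals, which count peaks as independent, are too narrow.

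The regions seldom touched known transcripts' starts. A midpoint lay inside a lncRNA gene for 132 of 600 (22.0%, 18.7 to 25.5), against 24.3% (21.8 to 26.8) of shared and 23.7% (17.3 to 31.2) of lost strict peaks, and the 3 intervals overlap. A RefSeq promoter window was touched by 2.00% (1.04 to 3.47), against 5.33% (4.13 to 6.76) of shared peaks, and these 2 intervals do not overlap. The lost peaks had 3.21% (1.05 to 7.32), which overlaps both. The 132 fell in 121 lncRNA genes, 16 of which held 2 or more of the regions. A930011G23Rik, Gm12610, Gm34805 and Gm45968 each held 3, and Gm45968 (chr16:55420838-55582457) lies between Zpld1 and Nfkbiz, an atypical inhibitor of NF-kappaB. The nearest miRNA genes were Mir5099 at 3.98 kb and Mir29b-1, of the miR-29 family, at 4.28 kb from chr6:31067371-31067971, between Klf14 and Mkln1.

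The 381 intervals were flanked by 725 protein-coding genes, which is 3.35% of all 21627 and 16.1% of the 4508 beside any interval over 100 kb. Intervals with 3 or more sites were flanked by 93 genes, 0.43% of all. Among the Kruppel-like factors, zinc finger proteins that set proliferation and differentiation in epithelia, 7 of 17 genes flanked a region (41.2%), which is 7 of the 9 beside a long interval. Klf5, Klf12, Klf4, Klf7 and Klf6 each flanked an interval with 3 or more sites, and Klf13 and Klf14 flanked 1 site each. The sites nearest to Klf7 and Klf6 lay 153 and 193 kb away. The shared strict peaks also had 7 Kruppel-like genes beside them. The number for Kruppel-like genes is therefore equal in both classes of peak.

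Of 39 intestinal transcription factor genes, 12 flanked a region (30.8%), and 17 flanked a shared strict peak. Beside a long interval lay 22 of the 39, and 12 is 54.5% of them. Klf5, Klf4 and Klf6 led with 8, 5 and 3 sites in 1 interval. Nr5a2, a nuclear receptor of crypt cells, followed with 2 sites at 73.5 and 182 kb, toward Ptprc. The others were Hes1, Gata6, Bcl6, Sox9, Maf, Prdm1, Isx and Tbx3. Of these, Bcl6 had its region 51.1 kb away, Sox9, a factor of stem and Paneth cells, 61.2 kb away, Maf 172 kb away and Prdm1, a transcriptional repressor, 174 kb away. The Sox family had 7 of 19 genes (36.8%) beside a region and 7 beside a shared strict peak. That is 7 of the 11 beside a long interval. Sox6 and Sox2 had 3 sites each, nearest at 162 and 1017 kb, while Sox9 and Sox13 had their nearest site at 61.2 and 98.5 kb.

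For the BMP and TGF-beta pathway, 5 of 48 genes (10.4%) flanked a region and 8 flanked a shared strict peak. That is 5 of the 26 beside an interval over 100 kb (19.2%), near the 16.1% of all such genes. Among ligands, Bmp2 had 3 sites on its 2 sides, the nearest 132 kb away, Bmp4 had 2, the nearest 105 kb away, and Bmp5 had 1 at 54.9 kb. The receptor gene Acvr2a, for an activin and BMP type II receptor, flanked 4 sites in 3697 kb, the nearest 411 kb away. Id2, a dominant-negative partner of bHLH factors and a known BMP target, had 1 site at 282 kb. No other gene of the list, SMAD genes included, flanked a region.

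Wnt and stem cell genes gave 6 of 40 (15.0%), with 8 beside a shared peak. Myc had 6 sites on both sides together, 4 of them between it and A1bg, the nearest 452 kb away. Apc had 1 at 63.3 kb, Lef1 1 at 110.3 kb and Ephb3 1 at 147 kb. The other two were Lrig1 and Sox4. Notch pathway genes gave 2 of 21 (9.52%): Hes1, the repressor that Notch induces, with 2 sites at 131 and 133 kb, and the ligand gene Dll1 with 1 at 113 kb. The EGF family gave 3 of 17 (17.6%), the ligands Btc and Areg at 77.6 and 131 kb and the receptor inhibitor Lrig1 at 340.0 kb. Counted over genes beside a long interval, these are 6 of 20 Wnt, 2 of 8 Notch and 3 of 8 EGF family genes.

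Genes of the mature enterocyte gave small counts, with shares of 4.17% to 8% beside the 3.35% of all genes. Few of them lie beside any interval over 100 kb: 4 of the brush border list, 5 of the transport list and 3 of the lipid list. Of 25 brush border and digestion genes, 2 flanked a region (8%) and 1 a shared strict peak: Tmprss15, the enteropeptidase that activates trypsinogen, 51.8 kb away, and Sis, sucrase-isomaltase, 370 kb away. Of 24 nutrient transport genes 1 flanked a region and 2 a shared peak, the first being Slc10a2, with a region 51.7 kb away at chr8:5031199-5031799 and 3 more toward Efnb2. Of 26 lipid genes 2 flanked a region and 3 a shared peak, the former being Apob at 58.1 kb and the cholesterol exporter Abca1 at 225 kb. Secretory lineage genes gave 2 of 29, with 1 beside a shared peak: Isl1 and Pax6, at 626 and 109.9 kb. Markers of non-epithelial cells gave 2 of 19, with 5 beside a shared peak: Ptprc of leukocytes and Cdh5 of endothelium, at 921 and 828 kb.

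The remaining lists are gene families taken by name. T-box genes gave 3 of 13 (23.1%), Irx genes 3 of 6 (50%) and Id genes 1 of 4, each with as many beside a shared peak. LIM and other homeobox genes gave 8 of 119 (6.72%), with 10 beside a shared peak. Among contactins, neurexins and leucine-rich adhesion genes of synapses 12 of 47 flanked a region (25.5%, 18 beside a shared peak), led by Lrrc4c with 4 sites, the nearest 2874 kb away. Cadherins and protocadherins gave 14 of 92 (15.2%), led by Cdh9 with 2 sites in 1 interval. Forkhead genes gave 4 of 44 (9.09%), among them Foxo1 and Foxq1 with 3 sites each, nearest at 120.0 and 122 kb, and Foxo3 with 1 at 65.7 kb. Nuclear receptors gave 3 of 45 (6.67%), Nr5a2, Nr2f2 and Nr3c1, against 8 beside a shared peak. Counted over genes beside a long interval, the shares were 38.7% for the contactin group and 51.9% for the cadherin group. They were 37.5% for T-box genes, 50% for Irx genes, 50% for Id genes and 17.0% for the other homeobox genes. For forkhead genes and nuclear receptors they were 17.4% and 16.7%, near the 16.1% of all such genes. Solute carriers gave 18 of 373 (4.83%), led by Slc13a1, a sulphate transporter, with 3 sites and the nearest at 93.5 kb. Olfactory receptors gave 0 of 1106, with 3 beside a shared peak. Only 30 of the 1106 lay beside an interval over 100 kb, so most could not be counted. For solute carriers 78 of the 373 did, and 18 is 23.1% of them. Over the 10 functional lists together, 35 of 285 genes (12.3%) flanked a region and 50 (17.5%) a shared strict peak, beside 3.35% and 5.30% of all genes. Lists rich in genes with long neighbouring intervals have more chances to be counted: 108 of the 285 listed genes lay beside an interval over 100 kb, and 35 is 32.4% of them.

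**Figure D5:**
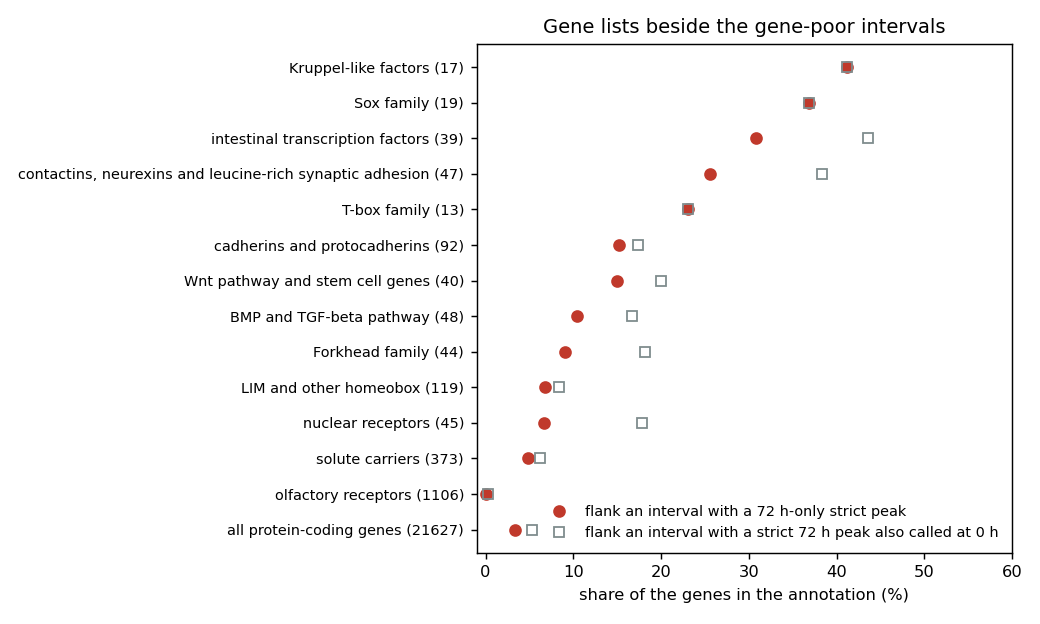
Share of each list's genes (%, list size in brackets) that flank an interval with a 72 h-only strict region (red circles) or with a strict 72 h peak also called at 0 h (open squares). Kruppel-like (41.2%), Sox (36.8%) and T-box genes (23.1%) have equal shares in both. Most other lists have the lower share for 72 h-only regions, as all protein-coding genes do (3.35% against 5.30%).

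Peaks close to the flanking genes were counted apart, since the rule did not use them. Of the 725 flanking genes, 247 (34.1%, 30.6 to 37.6) had a 72 h-only strict peak inside the gene or within 50 kb of it, against 21.7% (20.4 to 23.0) of 3783 genes beside a long interval with none of the regions and 28.1% of all genes. For genes beside 3 or more sites the value was 39.8% (29.8 to 50.5, 37 of 93). No such count was made for the 1146 genes that flank a shared strict peak. The part of general accessibility around these genes was not tested. Peaks found at 0 h only were near 11.2% (8.97 to 13.7) of the 725 and 9.54% (8.62 to 10.5) of the 3783. Sox5, Sox6 and Areg, an EGF receptor ligand, each had 4 such 72 h-only peaks (Sox5 is 954 kb long), Lef1, Btc and Sox13 had 3 each, and Klf6, Bmp2 and Prdm1 2 each, while Klf5, Cited2, Sgk1, Myc and Sox9 had none.

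Promoter windows were in the table for 549 of the 725 flanking genes (75.7%), below the 80% set as the minimum, so a comparison of promoter shares over all of them is void. For the 93 genes beside 3 or more sites, 76 had a window (81.7%): 52 carried a lenient peak at 0 h (68.4%, 56.7 to 78.6) and 50 at 72 h (65.8%, 54.0 to 76.3), 47 of them in both. Over all protein-coding genes with a window the shares were 54.8% at 0 h and 52.9% at 72 h. Beside long intervals with none of the regions they were 48.1% and 43.8%. Windows covered 79.9% and 77.8% of these 2 sets, also below the minimum. The promoters of Klf4, Cited2, Sgk1, Ptger4, Atp2b1, Gadd45a and Map3k1 were called strictly in both libraries, and those of Klf12, Nmbr, Aldh8a1, Actl7b and Agtr1b in neither. That of Dab2 had a lenient peak at 0 h only, and that of Gm38457 at 72 h only. Among the 549 genes with a window, 25 promoters were called at 0 h only and 15 at 72 h only (2.73%, 1.54 to 4.47). The second count was 37 of 2944 (1.26%, 0.886 to 1.73) beside long intervals with none of the regions. Over all protein-coding genes with a window it was 306 of 17273. Promoters with any lenient 72 h peak were 43.8% of the 2944 and 57.2% of the 549. With windows this incomplete the shares are a description. The 15 are Casp1, Ccdc71l, Cep44, Cyp2b10, Cyp2c29, Cyp2c66, Gm38457, Lin7a, Samd9l, Sis, Slc10a2, Tent4a, Tinag, Tmprss15 and Ubash3b. Sis, Slc10a2 and Tmprss15 are the digestion and transport genes among them. For all 15, promoter and distant region were both called at 72 h only. Besides Sis and Slc10a2, the promoter peaks of Ccdc71l, Cyp2b10, Cyp2c66, Tent4a, Tinag and Ubash3b were strict. Of these, Ccdc71l and Tent4a held SMAD letters, Ccdc71l and Ubash3b KLF letters, Tinag GATA and CDX letters, Cyp2b10 CDX letters and Cyp2c66 none. The windows of Sis (chr3:72967814-72968113, minus strand) and Slc10a2 (chr8:5105238-5105537, minus strand) were picked for the genes' function. Capitals mark CDX (TTTATNG) and AP-1 (TGANTCA) letters.
Sis: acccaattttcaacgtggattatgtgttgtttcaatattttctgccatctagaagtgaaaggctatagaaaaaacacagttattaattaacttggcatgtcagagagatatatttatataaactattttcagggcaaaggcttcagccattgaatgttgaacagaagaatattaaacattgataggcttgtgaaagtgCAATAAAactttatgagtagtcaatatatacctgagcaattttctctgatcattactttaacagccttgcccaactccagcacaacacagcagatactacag
Slc10a2: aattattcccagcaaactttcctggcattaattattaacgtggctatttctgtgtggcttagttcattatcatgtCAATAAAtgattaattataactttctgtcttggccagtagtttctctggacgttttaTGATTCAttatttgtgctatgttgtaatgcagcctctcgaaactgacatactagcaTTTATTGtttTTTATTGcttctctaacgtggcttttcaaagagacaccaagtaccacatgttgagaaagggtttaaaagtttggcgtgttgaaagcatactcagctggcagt
Sis had the CDX letters once, from base 199, and Slc10a2 had them at bases 76, 189 and 199, with AP-1 letters from base 133. CDX2 is the factor that sets intestinal identity, and its letters were in 10.9% of all promoter windows, so a match is a description and not a site.

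By chromosome, the regions per 10 Mb of space over 50 kb from genes were highest on chromosomes 10 (11.0, 49 regions) and 13 (10.3, 46 regions) and lowest on X (1.80, 14 regions). Chromosome 10 holds 5 of the 15 leading intervals. As a share of strict 72 h peaks in that space the regions ranged from 22.8% (14.1 to 33.6) on chromosome 17 to 41.4% (28.6 to 55.1) on chromosome 7, with intervals that overlap.

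The labelled tissue was checked on promoter peaks of marker genes. Of 10 enterocyte markers, 2 had a lenient promoter peak at 0 h (Vil1 and Ada) and 8 at 72 h. Of 4 stem cell markers with a window, 4 had one at 0 h and 3 at 72 h, Ascl2 being the one absent at 72 h. Tuft, fibroblast and muscle, immune, and neural markers had none of 3, 3, 3 and 2 windows called in either library, and the endothelial marker Kdr had a peak at 0 h only. Of goblet markers Fcgbp had a peak in both libraries, of Paneth markers Lyz1 at 72 h only, and of enteroendocrine markers Chgb in both and Isl1 at 0 h only. The gain of enterocyte marker promoters moved with the comparison, and its part in the regions was not tested.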

How the data were processed

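Open chromatin was measured by ATAC-seq in organoids, 1 library per time point. The tools named in the submitters' processing notes, with the mm10 build, are MACS2 2.2.7.1, Bowtie2 2.4.1, cutadapt 1.9.1, SAMtools 1.3.1, bedtools 2.26.0, Picard 2.18.27 and deepTools 3.5.4. Their settings, such as a shift for the Tn5 cut, were not given in the sources used here. Deposited lists hold peak positions of each library at p-value thresholds of 1e-05 (35857 at 0 h, 41343 at 72 h) and 1e-10 (19910 and 25040), nearly all 601 bp wide, with no score or read count, and depth is unknown. Another deposited list per library names its enriched regions, and all 600 regions described here are in the authors' 72 h list.

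Overlaps, distances to RefSeq gene bodies (GRCm38.p6), intervals, chains of sites a set distance apart and gene lists were counted with Python 3.11.15, numpy 2.4.6, pandas 2.3.3 and SciPy 1.17.1 in code tested on simulated positions. Distances run from a region's midpoint to a gene body, and gaps between peaks run from edge to edge. Shares carry exact Clopper-Pearson 95% intervals, which cover counting error only; with 1 library per group there is no test. The regions and gene lists were chosen with earlier results of these data known. The text names both flanking genes of the 15 intervals with the most sites (ties by regions, then shorter length), up to 4 genes per list, the regions nearest the limit, the farthest 3 and the 5 leading clusters; the choice of other names followed their values. Sequences come from the RefSeq promoter table; motif shares over all regions were not computed for want of a genome. One listed gene is not reported here.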

Additional observations from a re-analysis of the deposited data

Results flagged for a closer look

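Chromosome Y was outside the rule. It carried 10 strict 72 h peaks over 50 kb from protein-coding genes that no lenient 0 h peak overlapped, of 18 such peaks at any distance and 43 strict 72 h peaks. At 0 h the same count was 1, of 21 strict peaks. The signal stands out because it lies in data that no comparison above used, and its cause was not tested.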

How the results depend on the processing

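Of 44 alternatives, 26 kept the value within its limit (counts within 1.5 times, shares within the interval) and 18 moved it. The number of regions, 600, became 990 when only strict 0 h peaks had to be absent, 1056 with a 20 kb distance to genes, 345 with 100 kb and 140 when genes of every RefSeq type were kept away. The 33.3% share became 55% and 37.2% under the first and last of these. Intervals with 3 or more sites, 47, became 110, 73 (20 kb) and 10 (every type). Clusters, 39, became 21 with chains of 5 kb and 82 with 50 kb. Regions near a weaker 72 h-only peak, 24.7%, became 15% within 5 kb and 53.2% within 50 kb. The share inside non-coding genes, 24.3%, became 29.7% with 2 kb either side, and flanking promoters called at 72 h, 57.2% of the 549 with a window, became 51.0% at 1e-10. The 8 sites between Klf5 and Klf12 became 4 with 100 kb and 1 with every gene type, and the 7 Kruppel-like genes became 4 with every type. A gap of 1 kb to 0 h peaks left 568 regions. For 60 regions the neighbouring 0 h peaks had numbers that were not consecutive, so a 0 h peak not used here may lie between; this was not tested. No paired analysis was possible because each time point is 1 library. Unknown depth limits every absence at 0 h.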
